A study of Homo sapiens with 12 samples.

Results

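The ubiquitin-specific proteases (USPs) are the largest family of deubiquitinases, the enzymes that cut ubiquitin from proteins. The family was taken as every array row annotated with exactly 1 gene symbol made of USP and a number, with an optional letter, and each gene was read from its brightest row. This gave 49 genes of 18417 genes tested, and the multicopy USP17L genes were left out. USP10, USP32 and USP41 were not analysed here. RNA was measured in HEK293T cells, a human embryonic kidney line whose SV40 large T antigen binds and holds p53. The cells of 3 arrays received shRNAs against UBE4B and LSD1 together (double knockdown, shUBE4B+shLSD1), those of 3 arrays shRNA against UBE4B (shUBE4B), those of 3 arrays shRNA against LSD1 (shLSD1), and those of 3 arrays a nontargeting shRNA (shCTRL). According to the labels the knockdown lasted 78 h. The study's methods describe transient transfection with a misfolding SOD1 mutant present in all 4 groups. Because plasmids entered by transfection, an array reads a mixture of cells with more and less shRNA, and a change in fewer cells cannot be told apart from a smaller change in all of them. The 3 arrays of a group are called biological replicates in the labels.

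Ubiquitin is attached to proteins by E3 ligases and taken off by deubiquitinases, so the level of many proteins depends on the balance of both. USPs share a catalytic fold and differ in the parts around it, which bring each enzyme to its own substrates, and many of them are known to act on p53, on histones, on surface receptors or on the proteasome. USP7 is the best known link to p53, since it removes ubiquitin both from p53 and from MDM2, the main ligase of p53. UBE4B is a ligase that lengthens ubiquitin chains, on p53 among other proteins, and LSD1 (gene KDM1A) is a demethylase of histones and of p53. The comparisons ask which deubiquitinase transcripts differ when the ligase, the demethylase or both are reduced.

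The shRNAs lowered their targets. UBE4B averaged 8.93 ± 0.18 log2 in the double knockdown, 8.95 ± 0.10 under UBE4B knockdown, 10.42 ± 0.04 under LSD1 knockdown and 10.35 ± 0.06 in the control (SD, n = 3 each), so that 37.4% and 37.8% of the control signal remained in the double and UBE4B knockdowns. KDM1A remained at 46.0% in the double knockdown and 41.6% under LSD1 knockdown. The log2 values come from a normalization that brings all arrays to nearly the same distribution (array medians of 7.00 to 7.06), so a difference is relative to the other transcripts of the array. The 8 measured markers of HEK293 cells all lay above the 40% dimmest genes, and 2 of 8 markers of colon epithelium did. Of the 49 USP genes, 42 lay above the 40% dimmest genes (log2 7.04) and 7 did not. Differences are log2 differences from limma with 95% intervals, and a gene was called where its p, adjusted by Benjamini-Hochberg over every gene tested, was under 0.05.

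In the double knockdown, 6 of 49 USP genes (12.2%) passed the test, and 7.56% of all genes did. USP42, USP53 and USP54 rose (3.74% of all genes rose) and USP46, USP36 and USP5 fell (3.83% of all genes fell). In the UBE4B knockdown, 6 of 49 (12.2%) passed, and 10.1% of all genes did. USP15, USP48, USP53 and USP54 rose (5.59% of all genes rose) and USP43 and USP31 fell (4.47% of all genes fell). In the LSD1 knockdown, limma called 0 of 49, and 0.820% of all genes were called. At an unadjusted p under 0.05 there were 9 of 49 by limma (13.4% of all genes) and 12 by the methods' t-test (9.8% of all genes), and the methods' t-test gave 0 after Benjamini-Hochberg. The shares of all genes include the 40% dimmest, where 7 of the 49 USP genes lie. Without the 40% dimmest genes, 17.6% of 11050 genes were called in the double knockdown, 20.9% under UBE4B knockdown and 3.3% under LSD1 knockdown. These shares come from a separate fit that held 42 of the USP genes, so the counts of 49 above cannot be set against them. The UBE4B knockdown count of that fit is given with the other processing choices. The differences were small, as were those of all genes. The median absolute log2 difference of the 49 genes was 0.0898 in the double knockdown (all genes 0.0894). It was 0.1097 under UBE4B knockdown (all genes 0.1138) and 0.0794 under LSD1 knockdown (all genes 0.0776). The share of all genes that reached 1.2-fold was not worked out. Only USP42, USP46 and USP54 in the double knockdown and USP47, USP43 and USP46 under UBE4B knockdown reached 1.2-fold in either direction, USP47 and USP46 of the UBE4B knockdown without passing the test, and none reached it under LSD1 knockdown.

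**Figure D1:**
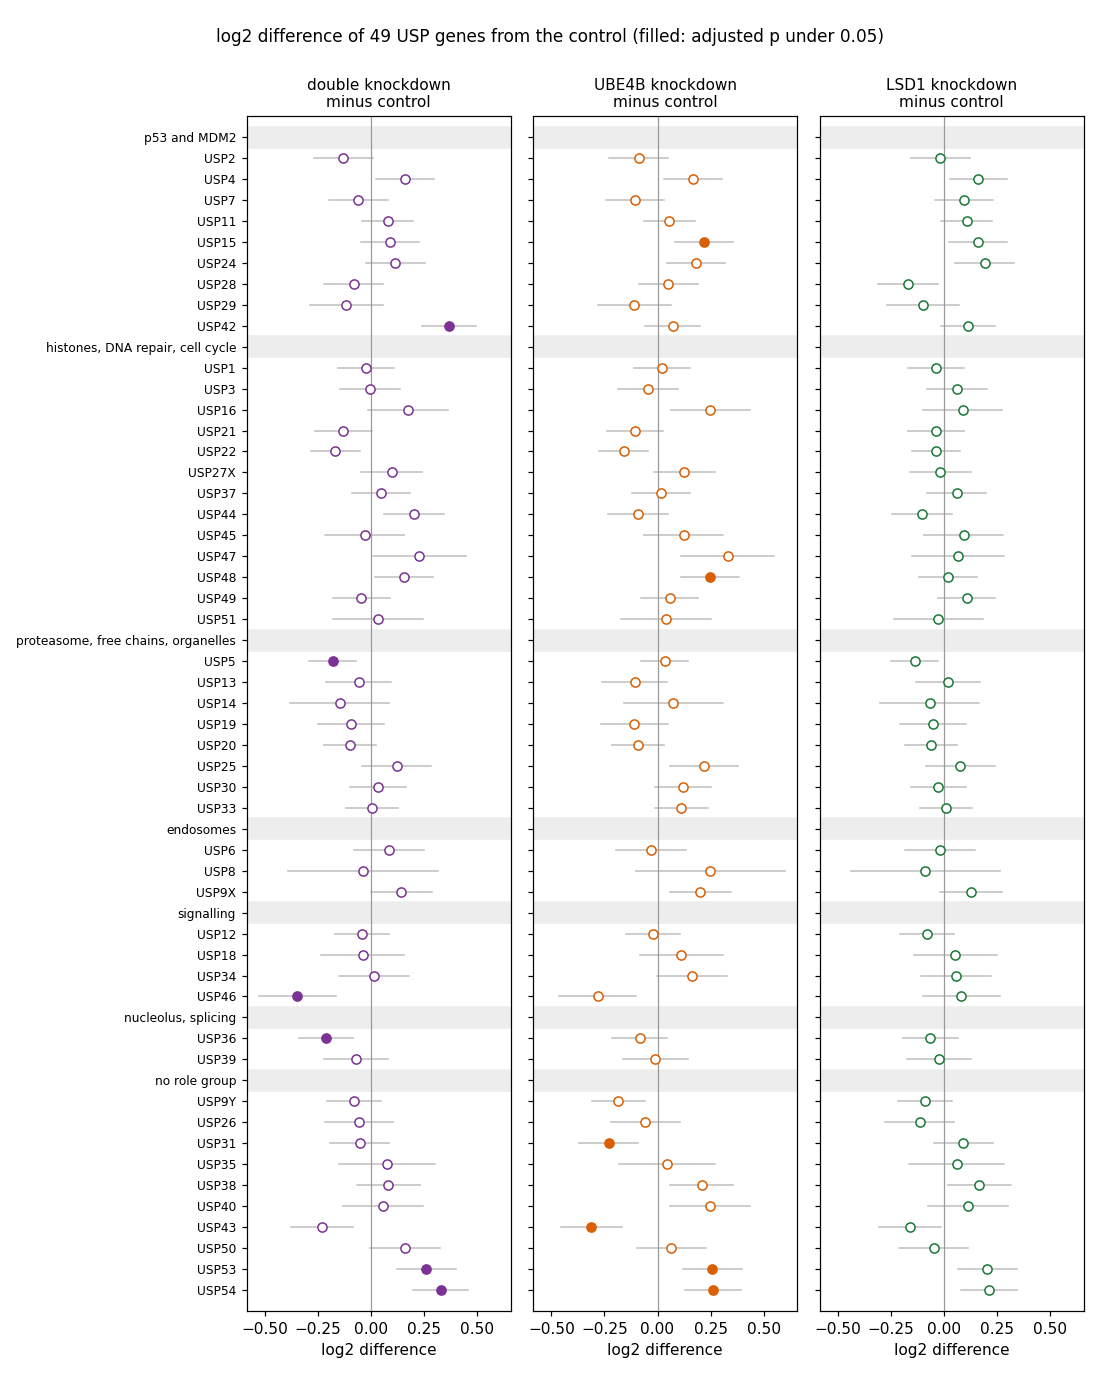
Each of the 49 USP genes, grouped by known role, with its log2 difference from the control in the double, UBE4B and LSD1 knockdown (points) and the 95% interval (grey lines). Filled points passed the test, which were 6 genes in the double knockdown, 6 under UBE4B knockdown and 0 under LSD1 knockdown.

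The median log2 difference of the 49 genes was -0.0048 in the double knockdown (all genes -0.0095), 0.05 under UBE4B knockdown (all genes -0.0256) and 0.0181 under LSD1 knockdown (all genes -0.0084). In the UBE4B knockdown 30 USP genes (61.2%) were above the control and 19 below it, and 43.5% of all genes were above it. With both shRNAs 24 were above and 25 below, and 46.9% of all genes were above. The arrays of the double knockdown did not overlap those of the control for 19 of 49 members (38.8%), beside 21.9% of all genes, those of the UBE4B knockdown for 23 (46.9%), beside 30.3% of all genes, and those of the LSD1 knockdown for 16 (32.7%), beside 16.6% of all genes. The 3 comparisons share the control arrays, so these counts are not independent of each other. The shares of all genes include the 40% dimmest, where 7 of the 49 members lie. Beside these counts, shCTRL replicate 2 was the lowest of the 3 control arrays for 29 of 49 USP genes and for 36.4% of all genes. Its part in the counts of arrays that do not overlap was not tested. Without it, the USP median of the UBE4B knockdown was 0.0253, that of the LSD1 knockdown was -0.0109 and that of the double knockdown was -0.0318. The medians of all genes without this array were not worked out, and those given above are of all 12 arrays.

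**Figure D2:**
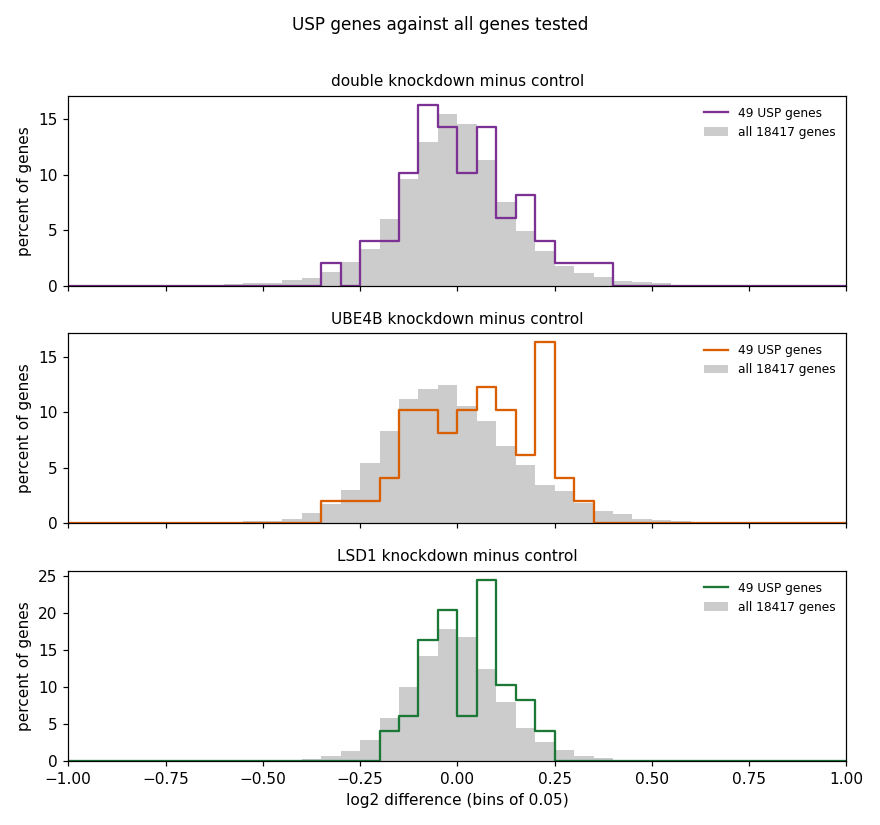
Percent of the 49 USP genes (lines) and of all 18417 genes (grey bars) in bins of log2 difference from the control, for the double, UBE4B and LSD1 knockdown, with the axis drawn from -1 to 1. The USP genes lie within the spread of all genes, with 30 of 49 above 0 under UBE4B knockdown.

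USP42, which removes ubiquitin from p53 and helps to stabilise it under stress, had the largest rise of the family in the double knockdown. It read 10.46, 10.36 and 10.39 on the double knockdown arrays, 10.17, 10.07 and 10.08 on the UBE4B knockdown arrays, 10.14, 10.13 and 10.17 on the LSD1 knockdown arrays and 9.97, 10.04 and 10.10 on the control arrays. All 3 double knockdown arrays were above every other array. The difference from the control was 0.37 (0.24 to 0.49; 1.29-fold; limma adjusted p = 0.00238) in the double knockdown, 0.07 (-0.06 to 0.20) under UBE4B knockdown and 0.11 (-0.01 to 0.24) under LSD1 knockdown. USP42 also rose in the double knockdown against the LSD1 knockdown, by 0.25 (adjusted p = 0.0402), and stood 0.29 above the UBE4B knockdown without passing the test (adjusted p = 0.075). The interaction, which asks whether the double knockdown differs from the sum of both single ones, was 0.18 and was not called. The rise over the control was called in each of the 12 fits that left out 1 array, with adjusted p of 0.0037 to 0.0135. It was not called by the methods' t-test after Benjamini-Hochberg.

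Its closest relative in the family, USP36, a nucleolar enzyme that stabilises MYC and proteins of ribosome production, moved the other way in the same arrays. USP36 read 9.42, 9.36 and 9.35 in the double knockdown, 9.51, 9.56 and 9.45 under UBE4B knockdown, 9.50, 9.55 and 9.52 under LSD1 knockdown and 9.65, 9.61 and 9.51 in the control. The double knockdown arrays were the 3 lowest of the 12. USP36 fell by 0.21 on the log2 scale under both shRNAs (adjusted p = 0.0457), and was 0.08 and 0.06 below the control in the UBE4B and LSD1 knockdowns, which was not called. The call was close to the threshold, and held without shCTRL replicate 3 (adjusted p = 0.0319) but was lost when any other single array was left out (up to 0.135).

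USP53 and USP54 are close relatives that were long held to lack deubiquitinase activity, and USP53 is known from tight junctions, the hearing organ and inherited cholestasis. Both rose in the double and under UBE4B knockdown. USP54 read 9.20, 9.22 and 9.21 in the double knockdown, 9.17, 9.22 and 9.04 under UBE4B knockdown, 9.08, 9.09 and 9.11 under LSD1 knockdown and 8.83, 8.90 and 8.92 in the control. Every knockdown array was above every control array. USP54 differed from the control by 0.33 (0.20 to 0.46; 1.25-fold; adjusted p = 0.00533) in the double knockdown, by 0.26 (0.13 to 0.39; adjusted p = 0.0177) under UBE4B knockdown and by 0.21 (0.08 to 0.34; adjusted p = 0.127) under LSD1 knockdown.

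USP53 gave a like picture. It read 9.35, 9.39 and 9.47 in the double knockdown, 9.34, 9.44 and 9.43 under UBE4B knockdown, 9.25, 9.44 and 9.36 under LSD1 knockdown and 9.14, 9.12 and 9.18 in the control. Again all 9 knockdown arrays were above the 3 control arrays, and the 3 knockdown groups overlapped each other. The differences were 0.26 (0.12 to 0.40; adjusted p = 0.0264) in the double knockdown, 0.26 (0.12 to 0.40; adjusted p = 0.0243) under UBE4B knockdown and 0.20 (0.07 to 0.34; adjusted p = 0.171) under LSD1 knockdown. The difference between the double and the UBE4B knockdown was 0.00 (-0.14 to 0.14) for USP53 and 0.07 (-0.06 to 0.20) for USP54. With 1 array left out, the call of USP54 in the double knockdown held in all 12 fits (adjusted p of 0.00489 to 0.0245). That of USP53 in the double knockdown was lost without shCTRL replicate 1 or without replicate 2 or 3 of the double knockdown (up to 0.103). In the double and UBE4B knockdowns, both genes lost their calls when the groups compared were fitted alone. The same held for the methods' t-test after Benjamini-Hochberg. In the UBE4B knockdown, USP54 lost its call without shCTRL replicate 1 or shUBE4B replicate 1 or 2 (up to 0.0836), and USP53 lost it without shCTRL replicate 1 or 2 or shUBE4B replicate 2 or 3 (up to 0.0907).

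USP46, which works with the WD-repeat proteins WDR48 and WDR20 on glutamate receptors and on the AKT phosphatase PHLPP1, had the largest fall of the family in the double knockdown. It read 8.95, 9.07 and 9.12 in the double knockdown, 9.09, 9.19 and 9.06 under UBE4B knockdown, 9.27, 9.58 and 9.57 under LSD1 knockdown and 9.42, 9.34 and 9.42 in the control. All 6 arrays with UBE4B shRNA were below all 6 arrays without it. USP46 fell by 0.35 on the log2 scale under both shRNAs, to 78.6% of the control signal (adjusted p = 0.0233). It was 0.28 below the control under UBE4B knockdown (adjusted p = 0.0507) and 0.08 above it under LSD1 knockdown (adjusted p = 0.748). Pooled over both LSD1 states, UBE4B shRNA lowered it by 0.35 (a log2 difference of -0.35, -0.48 to -0.23; adjusted p = 0.00183), which was called in all 12 fits without 1 array (up to 0.00701). The call against the control in the double knockdown was lost without shCTRL replicate 1 or 3 or without replicate 1 or 2 of the double knockdown (up to 0.0909). Its relative USP12, which shares the WDR48 partner, had differences of -0.04, -0.02 and -0.08 in the double, UBE4B and LSD1 knockdowns, with no call.

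USP5, also called isopeptidase T, takes apart ubiquitin chains that are not attached to a protein. It read 9.31, 9.29 and 9.31 in the double knockdown, 9.52, 9.54 and 9.48 under UBE4B knockdown, 9.34, 9.35 and 9.34 under LSD1 knockdown and 9.50, 9.46 and 9.48 in the control. All 6 arrays with LSD1 shRNA were below all 6 arrays without it. USP5 fell by 0.18 on the log2 scale under both shRNAs (adjusted p = 0.048), and pooled over both UBE4B states LSD1 shRNA lowered it by 0.18 (a log2 difference of -0.18, -0.25 to -0.10; adjusted p = 0.0301). In the LSD1 knockdown alone it was 0.14 below the control (adjusted p = 0.252). Both calls were lost when any single array other than shCTRL replicate 2 was left out (up to 0.124 for the double knockdown and 0.0929 for the pooled one). Its relative USP13 differed from the control by -0.06, -0.11 and 0.02 in the double, UBE4B and LSD1 knockdowns, with no call.

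Promoter windows are shown for the 5 called members of the double knockdown with an entry in the promoter set used (RefSeq, GRCh38.p14). USP42, also called, had no entry in that set. The windows are shown because USP53 and USP54 rose together while USP46, USP36 and USP5 fell. Each runs from 250 bases before a transcript start to 50 after it, and where a gene has several listed starts the most upstream one is printed (4 starts for USP54, 2 for USP36 and 2 for USP46). Capitals mark matches, on either strand, to GGGCGG (the SP1 box) or CCAAT (the NF-Y box).
USP53, chr4:119212463-119212762, plus strand: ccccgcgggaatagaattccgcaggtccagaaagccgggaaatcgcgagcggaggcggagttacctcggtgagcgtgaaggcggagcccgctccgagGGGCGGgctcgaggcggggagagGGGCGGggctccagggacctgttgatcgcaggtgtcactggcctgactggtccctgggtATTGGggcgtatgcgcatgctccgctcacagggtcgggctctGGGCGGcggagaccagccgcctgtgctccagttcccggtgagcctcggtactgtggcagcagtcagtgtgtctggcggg
USP54, chr10:73625592-73625891, minus strand: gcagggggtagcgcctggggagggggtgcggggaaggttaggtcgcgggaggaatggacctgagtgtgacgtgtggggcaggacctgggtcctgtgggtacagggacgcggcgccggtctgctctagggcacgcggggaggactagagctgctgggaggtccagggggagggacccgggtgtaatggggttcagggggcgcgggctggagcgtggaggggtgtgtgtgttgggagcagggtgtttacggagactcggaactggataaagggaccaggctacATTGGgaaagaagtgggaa
USP46, chr4:52659252-52659551, minus strand: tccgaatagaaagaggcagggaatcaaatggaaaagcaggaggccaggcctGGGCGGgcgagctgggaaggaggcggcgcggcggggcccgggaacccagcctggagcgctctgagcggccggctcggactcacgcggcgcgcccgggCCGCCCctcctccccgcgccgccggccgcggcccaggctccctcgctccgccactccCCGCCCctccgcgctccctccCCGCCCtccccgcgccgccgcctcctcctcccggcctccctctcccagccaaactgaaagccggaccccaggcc
USP36, chr17:78841390-78841689, minus strand: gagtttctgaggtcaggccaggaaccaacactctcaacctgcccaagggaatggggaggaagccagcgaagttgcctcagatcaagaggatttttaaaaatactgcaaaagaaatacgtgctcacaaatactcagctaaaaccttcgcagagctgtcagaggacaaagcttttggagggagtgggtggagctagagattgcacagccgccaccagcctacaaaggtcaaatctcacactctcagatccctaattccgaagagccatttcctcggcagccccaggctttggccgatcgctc
USP5, chr12:6851900-6852199, plus strand: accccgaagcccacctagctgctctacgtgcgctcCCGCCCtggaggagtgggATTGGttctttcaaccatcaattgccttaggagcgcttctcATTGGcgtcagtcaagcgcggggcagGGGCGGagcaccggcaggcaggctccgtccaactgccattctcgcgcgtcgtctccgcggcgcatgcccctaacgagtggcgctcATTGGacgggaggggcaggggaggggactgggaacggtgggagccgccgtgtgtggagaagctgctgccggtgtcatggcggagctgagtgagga

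The SP1 box was found 3 times in the USP53 window, 0 times in that of USP54, 4 times in that of USP46, 0 times in that of USP36 and 2 times in that of USP5, and 45.0% of all 35116 promoter windows hold it. The NF-Y box was found 1 time for USP53, 1 time for USP54 and 3 times for USP5, and 34.6% of all windows hold it. TGACGTCA (a cAMP response element), CACGTG (an E-box), CCGGAAGT (an ETS site) and the p53 decamer were searched on both strands too, and these letters are not in the 5 printed windows. They are in 1.85%, 7.26%, 4.14% and 6.63% of all windows. CCAAT and GGGCGG can share letters when they lie on opposite strands. USP53 and USP54 thus share the NF-Y letters and not the SP1 letters, and the windows were 68.3% and 65.7% G and C. Matches depend on the start taken. The other starts of USP54 held the NF-Y letters in 1 window and the SP1 letters in 1 window, the second start of USP36 held 2 SP1 boxes and 1 E-box, and the second start of USP46 held 0 SP1 boxes. A match is a description of the sequence, and nothing was measured at these windows.

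**Figure D3:**
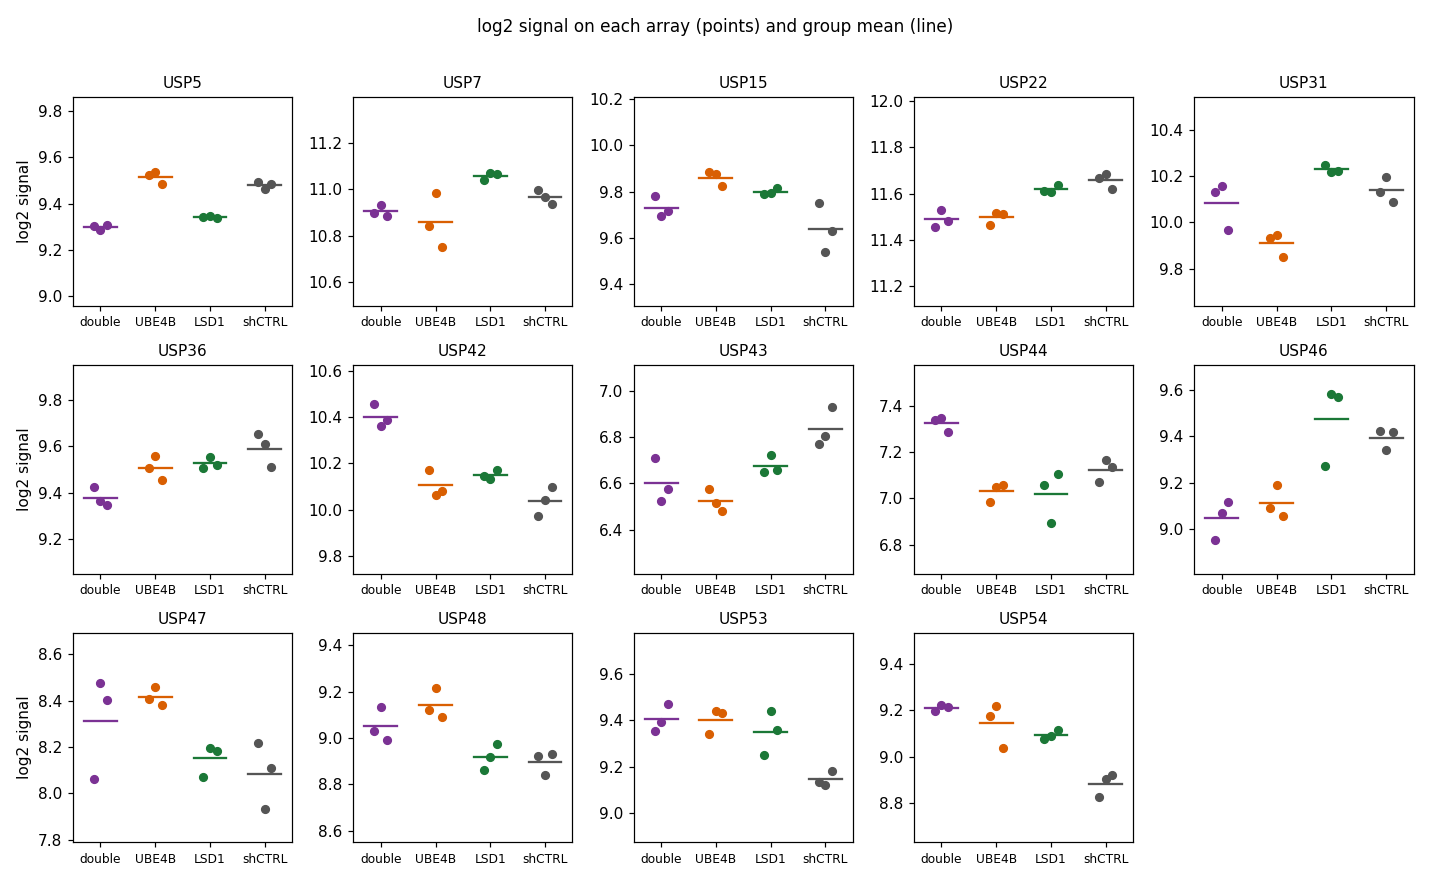
log2 signal on each array (points) and group mean (line) in the double, UBE4B and LSD1 knockdown and the control, for the 13 USP genes called in at least 1 of 8 contrasts and for USP7. USP42 and USP44 are highest in the double knockdown, USP46 is lower in both groups with UBE4B shRNA, and USP5 is lower in both groups with LSD1 shRNA.

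In the UBE4B knockdown, USP43 and USP31 fell, and these are close relatives as well. USP43, which lies among the 40% dimmest genes, read 6.71, 6.52 and 6.58 in the double knockdown, 6.58, 6.51 and 6.48 under UBE4B knockdown, 6.65, 6.72 and 6.66 under LSD1 knockdown and 6.77, 6.80 and 6.93 in the control. All 9 knockdown arrays were below the 3 control arrays. USP43 fell by 0.31 on the log2 scale (a difference of -0.31, -0.46 to -0.17; adjusted p = 0.0121) under UBE4B knockdown, and stood 0.23 below the control in the double knockdown (adjusted p = 0.0536) and 0.16 below it under LSD1 knockdown (adjusted p = 0.323). USP31, known as a regulator of NF-kB signalling, read 10.13, 10.16 and 9.97 in the double knockdown, 9.93, 9.94 and 9.85 under UBE4B knockdown, 10.25, 10.22 and 10.22 under LSD1 knockdown and 10.13, 10.19 and 10.09 in the control. The UBE4B knockdown arrays were the 3 lowest of the 12. It fell by 0.23 under UBE4B knockdown (adjusted p = 0.0402), with differences of -0.05 in the double knockdown and 0.09 under LSD1 knockdown that were not called. The call of USP43 was lost without shUBE4B replicate 3 (adjusted p = 0.0522). That of USP31 was lost in 8 of the 12 fits that left out 1 array (up to 0.134) and held without shCTRL replicate 3 or any 1 of the double knockdown arrays.

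USP48 and USP15 rose under UBE4B knockdown. USP48, an enzyme with substrates among histone H2A and NF-kB, read 9.03, 9.13 and 8.99 in the double knockdown, 9.12, 9.22 and 9.09 under UBE4B knockdown, 8.86, 8.92 and 8.97 under LSD1 knockdown and 8.92, 8.84 and 8.93 in the control. All 3 UBE4B knockdown arrays were above the 3 control arrays, by 0.25 on average (0.11 to 0.38; adjusted p = 0.0279). In the double knockdown USP48 was 0.15 above the control (adjusted p = 0.179) and under LSD1 knockdown 0.02 (adjusted p = 0.935). USP15, which stabilises MDM2 and acts on receptors and SMADs of the TGF-beta pathway, read 9.78, 9.69 and 9.72 in the double knockdown, 9.88, 9.87 and 9.82 under UBE4B knockdown, 9.79, 9.79 and 9.81 under LSD1 knockdown and 9.75, 9.54 and 9.63 in the control. The UBE4B knockdown arrays were the 3 highest of the 12. The difference was 0.22 (0.08 to 0.36; adjusted p = 0.043). Its relatives USP4 and USP11 were 0.17 (adjusted p = 0.104) and 0.06 (adjusted p = 0.552) above the control. The call of USP15 held without shCTRL replicate 1 (adjusted p = 0.021) and was lost when any other single array was left out (up to 0.128), while that of USP48 was lost without shCTRL replicate 2 or any 1 of the UBE4B knockdown arrays (up to 0.115).

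**Figure D4:**
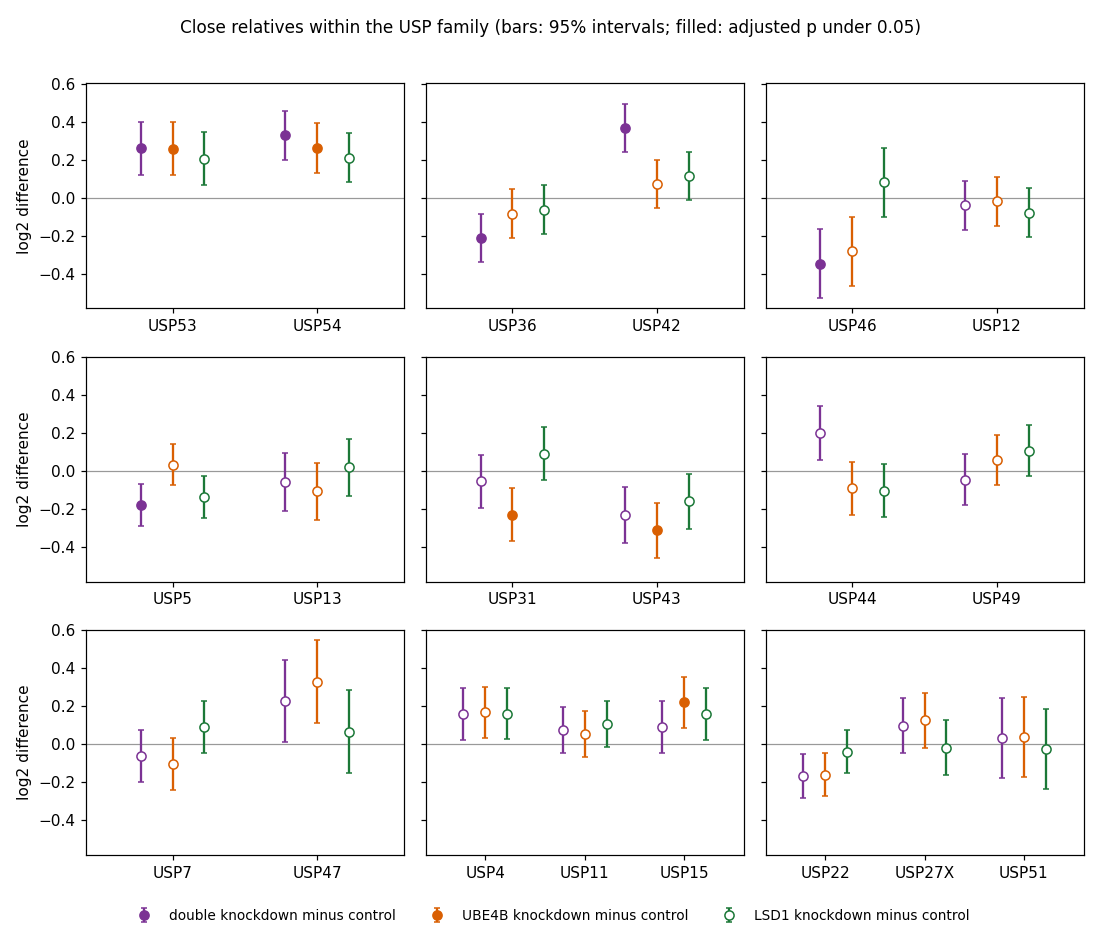
log2 difference from the control in the double, UBE4B and LSD1 knockdown (points, from left to right for each gene, with 95% intervals) for sets of close relatives within the family, filled where the adjusted p was under 0.05. USP53 and USP54 lie above 0 in all 3 comparisons, USP36 and USP42 lie on opposite sides of 0 in all 3, and USP46 lies below 0 in the double and UBE4B knockdowns with USP12 near 0.

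Pooling the arrays by shRNA uses all 12 arrays for each question. UBE4B shRNA, over both LSD1 states, was tied to 9 called members (18.4%), and 12.3% of all genes were called. USP42, USP47, USP48, USP53 and USP54 rose (6.23% of all genes) and USP22, USP31, USP43 and USP46 fell (6.12% of all genes). LSD1 shRNA, over both UBE4B states, was tied to 2 called members (4.08%), with USP42 higher (0.652% of all genes) and USP5 lower (0.831% of all genes), and 1.48% of all genes were called. Without the 40% dimmest genes, 24.1% of 11050 genes were called for pooled UBE4B shRNA and 4.33% for pooled LSD1 shRNA. Both shares are of the separate fit with 42 USP genes, and the counts of 49 cannot be set against them. USP22, the enzyme of the SAGA complex that removes ubiquitin from histones H2A and H2B, read 11.46, 11.53 and 11.48 in the double knockdown, 11.47, 11.52 and 11.51 under UBE4B knockdown, 11.61, 11.61 and 11.64 under LSD1 knockdown and 11.67, 11.68 and 11.62 in the control. All 6 arrays with UBE4B shRNA were below the other 6, and the pooled difference was -0.14 (-0.23 to -0.06; adjusted p = 0.0234). The relatives USP27X and USP51, which can take the place of USP22 in histone deubiquitination, had pooled differences of 0.12 and 0.05 with no call. USP47, which stabilises DNA polymerase beta, read 8.06, 8.48 and 8.40 in the double knockdown, 8.41, 8.46 and 8.38 under UBE4B knockdown, 8.07, 8.20 and 8.18 under LSD1 knockdown and 8.21, 7.93 and 8.11 in the control. It was 0.25 higher with UBE4B shRNA (0.09 to 0.40; adjusted p = 0.0391). Replicate 1 of the double knockdown stood apart from its group and lay below shCTRL replicates 1 and 3. USP47 kept its call only without shCTRL replicate 1 or without replicate 1 of the double knockdown, with adjusted p from 0.00533 to 0.0932 over the 12 fits. That of USP22 was lost without shUBE4B replicate 1, shLSD1 replicate 2 or 3 or replicate 1 or 3 of the double knockdown (up to 0.0642). USP31, USP46, USP48 and USP54 kept the pooled UBE4B call in all 12 fits (up to 0.0486), USP43 lost it without shLSD1 replicate 2 (0.0507), USP42 lost it without replicate 1 of the double, UBE4B or LSD1 knockdown or replicate 2 of the LSD1 knockdown (up to 0.0667), and USP53 lost it in 8 fits (up to 0.1). For pooled LSD1 shRNA, USP42 was called only without shCTRL replicate 2 or 3 (up to 0.0936 otherwise). Both pooled differences of USP42 include the double knockdown arrays, where it was 0.37 above the control. With UBE4B shRNA alone it was 0.07 above the control and with LSD1 shRNA alone 0.11, without a call.

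In the double knockdown against the LSD1 knockdown, 3 members (6.12%) were called and 2.79% of all genes were, with USP42 and USP44 higher (0.977% of all genes) and USP46 lower (1.81% of all genes). Of the 11050 genes left without the 40% dimmest, 7.25% were called. That share too is of the separate fit, and the count of 49 members cannot be set against it. USP44, which acts on histone H2B and in the mitotic checkpoint, read 7.34, 7.35 and 7.29 in the double knockdown, 6.99, 7.05 and 7.06 under UBE4B knockdown, 7.06, 6.89 and 7.11 under LSD1 knockdown and 7.07, 7.16 and 7.14 in the control. The 3 double knockdown arrays were the highest of the 12. The difference from the LSD1 knockdown was 0.30 (0.16 to 0.45; adjusted p = 0.0267), that from the UBE4B knockdown 0.29 (adjusted p = 0.112) and that from the control 0.20 (adjusted p = 0.0834). USP44 had the smallest interaction p of the family, with an interaction of 0.40 (limma adjusted p = 0.177), followed by USP15 with -0.29 (adjusted p = 0.249). USP46 was 0.43 below the LSD1 knockdown (a difference of -0.43, -0.61 to -0.25; adjusted p = 0.0176). With 1 array left out, USP42 lost this call in 9 of 12 fits, any but those without 1 of the control arrays (up to 0.145), USP44 lost it without shLSD1 replicate 1 or 2 or any 1 of the double knockdown arrays (up to 0.125), and USP46 lost it without shLSD1 replicate 2 or 3 or replicate 1 or 2 of the double knockdown (up to 0.0872). In the double knockdown against the UBE4B knockdown limma called 0 of 49, and 0.147% of all genes were called. At an unadjusted p under 0.05 there were 6 of 49 members by limma, beside 2401 of 18417 genes, and 12 by the methods' t-test (14.3% of all genes), and the methods' t-test gave 0 after Benjamini-Hochberg. For the interaction, which the methods' t-test did not cover, limma called 0 members and 0% of all genes, with 10 members and 13.1% of all genes at an unadjusted p under 0.05.

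USP7 is of interest because UBE4B, MDM2 and USP7 all act on the ubiquitin of p53. It read 10.90, 10.93 and 10.89 in the double knockdown, 10.84, 10.99 and 10.75 under UBE4B knockdown, 11.04, 11.07 and 11.07 under LSD1 knockdown and 11.00, 10.97 and 10.94 in the control. Of the UBE4B knockdown arrays 2 lay below the 3 control arrays and 1 among them, and the double knockdown arrays lay just below the control arrays. The differences were -0.06 (-0.20 to 0.08; adjusted p = 0.675) in the double knockdown, -0.11 (-0.24 to 0.03; adjusted p = 0.304) under UBE4B knockdown and 0.09 (-0.04 to 0.23; adjusted p = 0.582) under LSD1 knockdown. Pooled over both LSD1 states, the difference with UBE4B shRNA was -0.13 (-0.23 to -0.03; adjusted p = 0.0825), and this passed the test under 3 of 20 alternatives. MDM2, which USP7 stabilises, rose in the double knockdown by 0.39 (1.31-fold; adjusted p = 0.0149) and under UBE4B knockdown by 0.50 (1.41-fold; adjusted p = 0.00407), while DAXX, a bridge between USP7 and MDM2, fell by 0.29 (adjusted p = 0.0471) and by 0.31 (adjusted p = 0.0268). Of 8 measured genes of the p53 axis, these were the 2 that passed in either comparison, and under LSD1 knockdown 0 passed. Of all genes, 7.56% passed in the double knockdown, 10.1% under UBE4B knockdown and 0.820% under LSD1 knockdown. A list of 8 genes is too short to be read against these shares. MDM4, the relative of MDM2 that also binds p53, stood at 0.00 (adjusted p = 0.991) in the double knockdown and 0.21 above the control (adjusted p = 0.174) under UBE4B knockdown.

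With USP7, 9 members with a known tie to p53 or MDM2 were measured. USP42 in the double knockdown and USP15 under UBE4B knockdown were the called ones. Of all genes, 7.56% were called in the double knockdown, 10.1% under UBE4B knockdown and 0.820% under LSD1 knockdown. Role groups this small cannot be read against these shares. USP24, which can act on p53, stood 0.19 above the control under LSD1 knockdown (adjusted p = 0.202), among the largest differences there, and USP28, a partner of 53BP1, stood 0.17 below it (adjusted p = 0.271). Among 13 members known for histones, DNA repair or the cell cycle, USP48 was the called one under UBE4B knockdown, and 0 were called in the double knockdown. Among 8 members tied to the proteasome, free chains, the endoplasmic reticulum, mitochondria or autophagy, USP5 was the called one, in the double knockdown, and the other differences ran from -0.15 to 0.12 there. The 3 endosomal members, USP6, USP8 and USP9X, had 0 calls in the 3 comparisons. USP8, which rescues receptors from lysosomal breakdown, was uneven in the control, at 9.61, 8.84 and 9.54, and the interval of its difference was wide (-0.10 to 0.60 under UBE4B knockdown). USP14, the proteasome-bound USP, read 10.49, 9.96 and 10.40 in the control, with the same array low.

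The partners that switch USPs on or place them, such as WDR48 and WDR20, had 0 calls among 11 measured in any comparison with the control. The genes of ubiquitin and its activating enzymes had 0 among 4 measured. The shares of all genes called were 7.56%, 10.1% and 0.820% in the 3 comparisons, so lists this short are too small to be read against them. In the other deubiquitinase classes, 35 genes were measured. In the double knockdown YOD1 and STAMBP rose and UCHL1 fell, and under UBE4B knockdown UCHL3, OTUD7B, STAMBP, STAMBPL1 and MINDY2 rose and UCHL1 fell, while 0 were called under LSD1 knockdown. STAMBP, a metalloprotease of endosomes, averaged 10.07 ± 0.05 in the double knockdown, 10.01 ± 0.03 under UBE4B knockdown, 9.93 ± 0.03 under LSD1 knockdown and 9.66 ± 0.09 in the control (SD, n = 3 each), which is 1.33-fold over the control in the double knockdown (adjusted p = 0.0014). UCHL1, an abundant deubiquitinase of neurons, averaged 10.28 ± 0.08 in the double knockdown, 10.33 ± 0.08 under UBE4B knockdown, 10.58 ± 0.03 under LSD1 knockdown and 10.67 ± 0.08 in the control, with 76.2% of the control signal in the double knockdown (adjusted p = 0.00302).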

How the data were processed

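Members and gene lists were chosen with earlier results of these data known. RNA of 12 samples was hybridized by the authors to Affymetrix Human Gene 1.0 ST arrays. The deposited log2 signals had been background-corrected, quantile-normalized and summarized per transcript cluster by RMA (Partek), on build hg19 per the submitters' processing notes, with versions not given in the sources used here. The labels and the methods name different amplification kits. Of 33297 clusters, 19460 had 1 symbol, 1754 several and 12083 none, and 31 symbols could not be updated, which left 18417 genes, each read from its brightest row. All 12 arrays were fitted in limma 3.58.1 (R 4.3.3; lmFit, eBayes without trend, 4 group means, 8 residual and 5.13 prior degrees of freedom, Benjamini-Hochberg). The pairing check gave correlations of -0.08 to 0.33 between same-numbered arrays, 10 of 18 over 0.1. It does not settle whether equal numbers pair arrays, and the main fit had no replicate block. Named USP genes were those past the test in any of 8 contrasts, USP7, their family relatives and the 3 largest and 3 smallest differences per comparison with the control, and genes of the other lists were the up to 4 largest past the test. USP8 and USP14 were named for their spread, and USP6 and USP9X as members of a role group, after their values were seen. Alternatives were other eBayes settings, fits of 2 groups, a replicate block, array weights, 2 scalings, the mean of rows, a dim-gene filter, all clusters, the methods' t-test, a rule of 1.2-fold with an unadjusted p under 0.05 and each array left out. The number of arrays limits the precision. Figures used Python 3.11.15, NumPy 2.4.6 and matplotlib 3.10.9. The procedure was tested on simulated data.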

Additional observations from a re-analysis of the deposited data

How the results depend on the processing

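No direction of a called USP gene was reversed by any alternative, but many alternatives could not reverse one. Other eBayes settings, fits of 2 groups, the replicate block, all clusters, the dim-gene filter and the t-test keep the same difference. The mean of rows does too, since no called USP gene had a second row. So does leaving out an array of a group not compared. Of 563 repeats of 26 gene calls, 388 stayed past the test and 175 did not. The 388 include the methods' t-test at an unadjusted p under 0.05, a looser rule than the call. The count of called members moved as follows. With trend and robust eBayes it was 14 under UBE4B knockdown (12.9% of all genes) and 1 in the double against the UBE4B knockdown (0.467%). Fitting the groups compared alone gave 1 in the double knockdown (USP42, with 2.28% of all genes called). It gave 0 under UBE4B knockdown (3.76%) and 0 in the double against the LSD1 knockdown (2.24%), from fewer arrays. Array weights gave 3 in the double knockdown (6.52% of all genes) and 1 in the double against the UBE4B knockdown (0.679%). Without the 40% dimmest genes it was 13 of 42 under UBE4B knockdown (20.9% of the 11050 genes left) and 3 of 42 in the double against the UBE4B knockdown (0.796%). Over all transcript clusters it was 1 for pooled LSD1 shRNA and 1 for the double against the LSD1 knockdown. The methods' t-test gave, at an unadjusted p under 0.05, 15 in the double knockdown (14.8% of all genes), 15 under UBE4B knockdown (19%) and 12 under LSD1 knockdown (9.8%). It gave 12 in the double against the UBE4B knockdown (14.3%) and 12 in the double against the LSD1 knockdown (15.4%). After Benjamini-Hochberg it gave 1 in the double knockdown (USP5), 0 under UBE4B knockdown and 0 in the double against the LSD1 knockdown. Counting members past 1.2-fold with an unadjusted p under 0.05 gave 3 in the double knockdown, 3 under UBE4B knockdown, 1 for pooled UBE4B shRNA, 0 for pooled LSD1 shRNA, 2 for the double against the UBE4B knockdown and 4 for the interaction. The cause of these moves was otherwise not tested. No share of all genes was worked out for all transcript clusters, the adjusted t-test, the 1.2-fold rule or the 2 scalings. Nor was one worked out for the replicate block or the fits without 1 array. Centring gave 3 higher and 1 lower in the double knockdown, where the main counts were 3 and 3, and a further quantile normalization gave 3 and 3 under UBE4B knockdown, where they were 4 and 2.

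Leaving out 1 array gave 2 to 6 called members in the double knockdown (2 without shCTRL replicate 1 or replicate 2 of the double knockdown, 3 without its replicate 3), 1 to 8 under UBE4B knockdown (1 without shUBE4B replicate 2 or 3, 2 without shUBE4B replicate 1 or shCTRL replicate 2), 5 to 8 for pooled UBE4B shRNA (5 without shLSD1 replicate 2), 0 to 4 for pooled LSD1 shRNA (4 without shCTRL replicate 2, 1 without shCTRL replicate 3, 0 without any other), 0 to 1 for the double against the UBE4B knockdown (1 without shCTRL replicate 2) and 0 to 3 for the double against the LSD1 knockdown (0 without shLSD1 replicate 2 or replicate 1 or 2 of the double knockdown, 1 without shLSD1 replicate 1 or 3 or replicate 3 of the double knockdown). It stayed at 0 for the LSD1 knockdown and for the interaction. With the replicate block the counts were 6 (double knockdown), 8 (UBE4B knockdown), 0 (LSD1 knockdown), 9 (pooled UBE4B shRNA) and 2 (pooled LSD1 shRNA), all within 1.5 times. Without shares of all genes for these fits, a move of the members cannot be told apart from a move of all genes. The median of the LSD1 knockdown was 0.0579 without the 40% dimmest genes and ran from -0.0109 to 0.0474 with 1 array left out, and that of the double knockdown ran from -0.0318 to 0.0588.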

Other observations

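USP12 and USP49 each had a second row, and USP18 had one shared with the pseudogene USP41P. The second row of USP12 had log2 differences of -0.04, 0.01 and -0.06 in the double, UBE4B and LSD1 knockdowns, that of USP49 had 0.02, -0.02 and -0.04, and the shared row had -0.0018, 0.05 and 0.05. In the fit of all transcript clusters 0 of these 9 differences passed the test.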
